A study of Mus musculus with 9 samples.

Results

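The Hox cluster genes are homeobox transcription factor genes that stand in 4 clusters in the mouse genome, Hoxa on chromosome 6, Hoxb on chromosome 11, Hoxc on chromosome 15 and Hoxd on chromosome 2. They were followed here across mouse mammary tumours grown from 3 cell lines. The members were all genes whose annotated symbol has the form Hoxa, Hoxb, Hoxc or Hoxd with a number and whose array feature carries that 1 symbol only, with each gene read from its feature of highest mean. The rule found 37 genes among 19938 measured genes, namely 10 of Hoxa, 9 of Hoxb, 9 of Hoxc and 9 of Hoxd, and each of them had a single feature. Hoxb8 shares its feature with Hoxb7 and is not among them.

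The samples were snap-frozen tumours from NDL, Met1 and SSM2, with 3 arrays per line and 9 in all, measured as total RNA on an Affymetrix whole-transcript expression array. NDL, written NDL(UCD) in the labels, is a mouse mammary tumour line driven by activated ErbB2, Met1 descends from a polyoma middle T tumour, and SSM2 is a hormone receptor-positive mouse mammary tumour line. All groups shared the host: cells kept in culture were injected on both sides into the uncleared fat pads #2, #3 and #4 of FVB/NJ females that were 6 to 8 weeks old, and tumours were taken at a largest width of 5 to 10 mm. No group was treated, and each group is 1 transplanted line, so that a difference between groups is a difference between lines. Uncleared pads keep the host's own mammary epithelium, and bulk tumour RNA includes host stroma. The labels do not say which fat pad a sample came from, nor that the 3 samples of a line came from separate mice or tumours, so the p-values measure only the spread between these samples, which may be technical. In bulk samples fewer cells of a type and less RNA per cell cannot be told apart.

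Hox proteins bind DNA through a homeodomain, and they set the identity of body regions along the head-to-tail axis of the embryo. Genes of like number in the 4 clusters are paralogues, and low numbers (anterior genes) stand at the end of the cluster that is switched on first, high numbers (posterior genes) at the other. Hox proteins gain DNA specificity from cofactors of the TALE homeobox class, Pbx, Meis and Pknox, while retinoic acid and Cdx factors switch clusters on, Polycomb complexes keep them silent and Trithorax complexes keep them active. Several Hox genes are used again in the adult mammary gland, where mice lacking the group of Hoxa9, Hoxb9 and Hoxd9 fail to develop the gland properly in pregnancy.

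The start regions of the genes that differed between lines are shown first, because 4 of those with an entry lie close together in Hoxa and were all higher in NDL than in SSM2. Of the 9 Hox genes that passed in at least 1 comparison, 5 had an entry in the RefSeq promoter table. Each window holds 250 bases before and 50 bases after the RefSeq transcript start (GRCm38.p6), written from 5′ to 3′ on the gene's own strand, and capitals mark the homeodomain core TAAT on either strand (ATTA when on the other strand).
Hoxa3, chr6:52213018-52213317, minus strand: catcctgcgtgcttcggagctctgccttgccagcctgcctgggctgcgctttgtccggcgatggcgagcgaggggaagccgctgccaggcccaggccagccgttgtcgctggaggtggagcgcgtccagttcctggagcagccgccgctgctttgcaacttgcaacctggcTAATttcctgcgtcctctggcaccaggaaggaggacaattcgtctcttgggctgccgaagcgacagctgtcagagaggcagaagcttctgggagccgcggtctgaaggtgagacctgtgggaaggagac
Hoxa5, chr6:52204538-52204837, minus strand: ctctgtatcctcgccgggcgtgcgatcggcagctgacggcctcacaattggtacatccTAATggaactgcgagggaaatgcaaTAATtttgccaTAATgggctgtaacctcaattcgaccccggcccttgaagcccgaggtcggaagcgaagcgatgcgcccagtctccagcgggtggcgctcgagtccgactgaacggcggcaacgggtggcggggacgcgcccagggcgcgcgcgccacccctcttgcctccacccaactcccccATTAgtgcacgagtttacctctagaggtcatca
Hoxa6, chr6:52208623-52208922, minus strand: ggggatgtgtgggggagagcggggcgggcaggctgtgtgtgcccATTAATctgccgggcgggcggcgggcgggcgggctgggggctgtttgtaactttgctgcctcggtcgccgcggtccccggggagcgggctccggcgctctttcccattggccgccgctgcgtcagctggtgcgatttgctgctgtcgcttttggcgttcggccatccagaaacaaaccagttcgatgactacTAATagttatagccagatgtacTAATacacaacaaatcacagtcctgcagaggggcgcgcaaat
Hoxa7, chr6:52218524-52218823, minus strand: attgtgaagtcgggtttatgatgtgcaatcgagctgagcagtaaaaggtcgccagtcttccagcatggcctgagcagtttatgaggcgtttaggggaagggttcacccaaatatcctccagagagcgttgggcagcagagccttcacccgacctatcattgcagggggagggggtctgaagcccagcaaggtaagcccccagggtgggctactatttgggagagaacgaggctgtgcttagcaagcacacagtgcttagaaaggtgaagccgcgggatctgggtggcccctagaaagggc
Hoxb4, chr11:96318017-96318316, plus strand: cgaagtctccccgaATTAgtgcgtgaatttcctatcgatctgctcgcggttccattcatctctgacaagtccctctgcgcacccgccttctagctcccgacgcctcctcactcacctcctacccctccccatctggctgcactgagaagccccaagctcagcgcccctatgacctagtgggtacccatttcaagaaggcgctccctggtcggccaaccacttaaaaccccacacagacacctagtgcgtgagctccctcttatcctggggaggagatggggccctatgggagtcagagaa
The Hoxa3 window lies between those of Hoxa6 and Hoxa7, since RefSeq places the start of this Hoxa3 transcript well upstream of its neighbours. The core occurred 4 times in the Hoxa5 window and 4 times in that of Hoxa6, where 2 occurrences overlap in ATTAAT, once each in Hoxa3 and Hoxb4, and 0 times in Hoxa7. TAAT is a short motif and stood in 58% of all 32851 windows of the table and in 18 of 23 Hox windows (21 genes, 78.3%). The Pbx with Hox motif TGATNNAT stood in 8.85% of all windows and in 3 Hox windows (13%), and the Meis motif TGACAG in 19.2% of all and in 2 Hox windows (8.7%), among them that of Hoxa3. All motifs were sought on both strands, and the motif in Hoxa3 did not overlap its capitals. The windows were rich in CpG: 20 in Hoxa3, 29 in Hoxa5, 26 in Hoxa6, 9 in Hoxa7 and 14 in Hoxb4, beside a median of 15 over the 23 Hox windows and of 7 over all windows. A match in these letters is a description and no evidence of binding.

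All values are log2 signals as deposited, and differences are between log2 means with the standard error (SE) of the fit. Arrays of a line correlated over all genes at 0.947 to 0.986 for NDL, 0.987 to 0.995 for Met1 and 0.962 to 0.983 for SSM2. The epithelial marker Epcam read 10.4 to 10.9 in NDL and 10.5 to 10.6 in SSM2, and lower in Met1, at 8.11, 8.85 and 5.25. NDL arrays 1 and 2 stood apart from the other 7 in the spread of their values, with upper quartiles of 7.85 and 7.84 beside 7.98 to 8.09 elsewhere, and lower quartiles of 4.98 and 5.01 beside 4.77 to 4.85. Hox genes sit in the lower part of the signal range, so this bears on them. Their 333 array values ran from 3.56 to 7.73, and the gene means from 4.11 to 6.66 with a median of 5.23, where 25% of all genes had a mean under 4.91. The mean of 9 Hox genes lay under that level, in all 3 lines for 8 of these, and 3 Y-linked genes, which female tissue lacks, read 2.61 to 3.85. Of the 37 genes, 11 (29.7%) carried the same value to 6 decimals on at least 3 arrays, beside 19.1% of all genes and 26.3% of the 7870 genes whose mean lay within the Hox range.

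Most Hox genes that differed between the lines had their highest level in NDL tumours. Across the 3 lines the moderated F-test of limma passed 7 of the 37 genes (18.9%) at an adjusted p under 0.05: Hoxa3, Hoxa5, Hoxa6, Hoxa7, Hoxb2, Hoxb4 and Hoxc6. The same test passed 25.1% of all genes and 15.6% of the genes within the Hox signal range, so the share of Hox genes lay between these backgrounds. In NDL tumours against Met1 tumours 3 Hox genes passed (8.11%), all higher in NDL, where 19.1% of all genes passed in either direction, 8.88% of all genes were higher, and 11.3% of genes in the Hox range passed. In NDL against SSM2 tumours 8 passed (21.6%), all higher in NDL, beside 16.9% of all genes in either direction, 9.35% higher and 11% in the Hox range. In Met1 against SSM2 tumours 1 Hox gene passed (2.7%), lower in Met1, beside 11.8% of all genes in either direction, 4.71% lower and 7.37% in the Hox range. The contrasts share arrays, so they are not separate evidence. The remaining 28 Hox genes passed in no contrast.

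**Figure D1:**
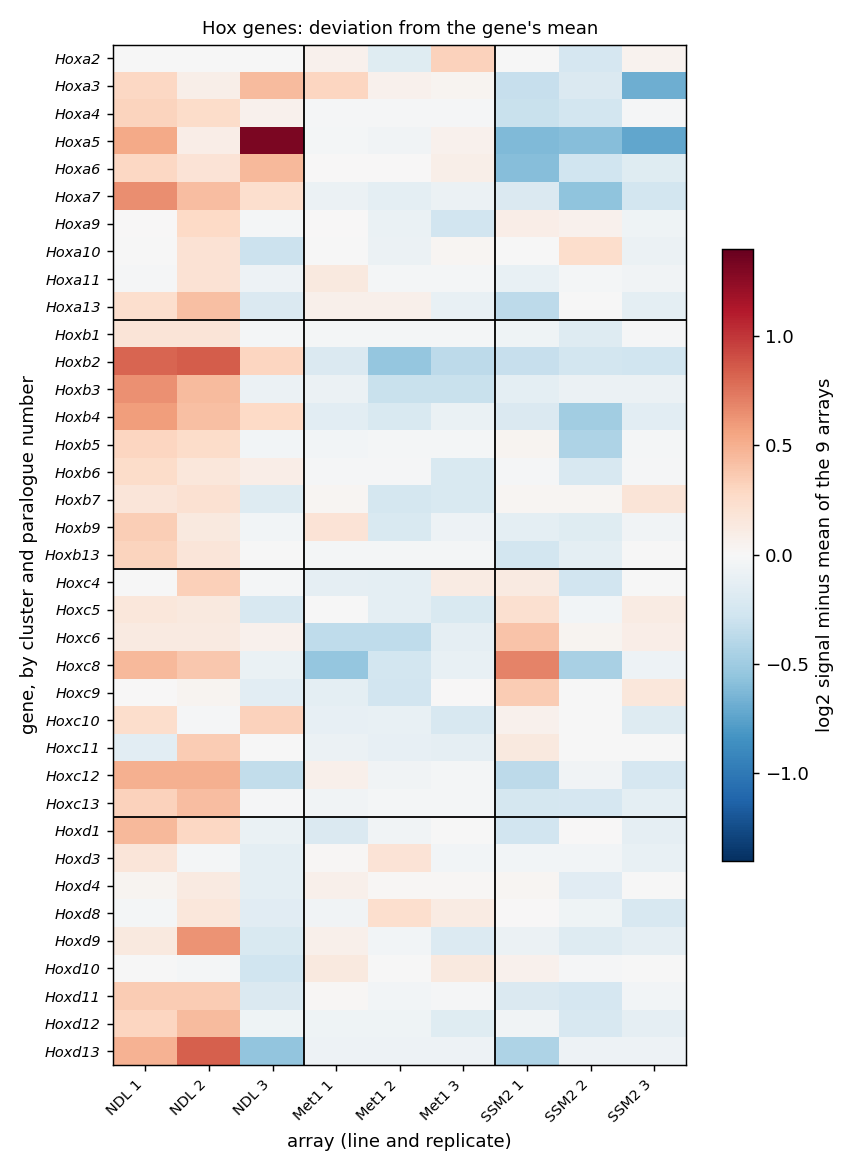
Each row is 1 of the 37 Hox genes, ordered by cluster and paralogue number, and each column 1 array, with 3 arrays each of NDL, Met1 and SSM2. Colour gives the log2 signal minus the gene's mean over the 9 arrays, and the highest single value, Hoxa5 at 7.73 in NDL array 3, stands in the block of Hoxa3 to Hoxa7 that is red in NDL and blue in SSM2.

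Over all 37 genes the median difference was 0.20 for NDL minus Met1, 0.27 for NDL minus SSM2 and 0.08 for Met1 minus SSM2, on the log2 scale. The medians over all genes were 0.06, 0.09 and 0.04, and over the genes in the Hox range 0.12, 0.15 and 0.04. Positive differences numbered 31, 31 and 26 of 37. The counts were 5478, 5629 and 4748 of the 7870 genes in the Hox range, and 11515, 12091 and 11465 of all 19938 genes. After cyclic loess normalization between arrays, which brings the median of all genes to 0.00 in these 3 contrasts, the Hox medians were 0.11, 0.15 and 0.04, with 30, 24 and 23 positive. In the values as deposited, genes of like signal thus shifted in the same direction as the Hox genes in NDL, by less at the median. After cyclic loess the medians over the genes in the Hox range were 0.03, 0.01 and -0.002.

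Within the NDL line the arrays were not alike. NDL array 3 was the lowest of the 3 NDL arrays for 32 of the 37 Hox genes, including all 9 of Hoxd, and the same held for 65.3% of genes in the Hox range. The mean over all Hox genes was 5.58, 5.59 and 5.32 in the NDL arrays, 5.29, 5.23 and 5.26 in the Met1 arrays and 5.24, 5.17 and 5.22 in the SSM2 arrays. The mean over the 7870 genes in the Hox range was 5.49, 5.53 and 5.38 in NDL, 5.38, 5.38 and 5.41 in Met1, and 5.43, 5.32 and 5.40 in SSM2. Without NDL array 3, 10 Hox genes passed against Met1 and 17 against SSM2, all of them higher in NDL. Calls over all genes also increased in that fit, to 33.3% against Met1 and 35.2% against SSM2 (16.9% and 20% higher in NDL), beside 27% and 45.9% of the Hox genes. Without NDL array 1, 1 passed against Met1 (Hoxb2) and 5 against SSM2. These are 2.7% and 13.5% of the Hox genes, beside 11.9% and 9.39% of all genes in that fit. Without Met1 array 2 the count against Met1 was 1 (Hoxb2), or 2.7%, beside 12.5% of all genes. With NDL arrays 1 and 2 left out together, 1 NDL array remained, so only differences are given. Hoxa5, Hoxa7 and Hoxb4 then differed from Met1 by 1.32, 0.34 and 0.43. Against SSM2, Hoxa3, Hoxa6, Hoxa7, Hoxb2 and Hoxb4 differed by 0.85, 0.80, 0.58, 0.58 and 0.56. Hoxa4 and Hoxc13 differed from SSM2 by 0.26 and 0.19. Whether the quality of arrays 1 and 2 or the tumours themselves differ was not tested.

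**Figure D2:**
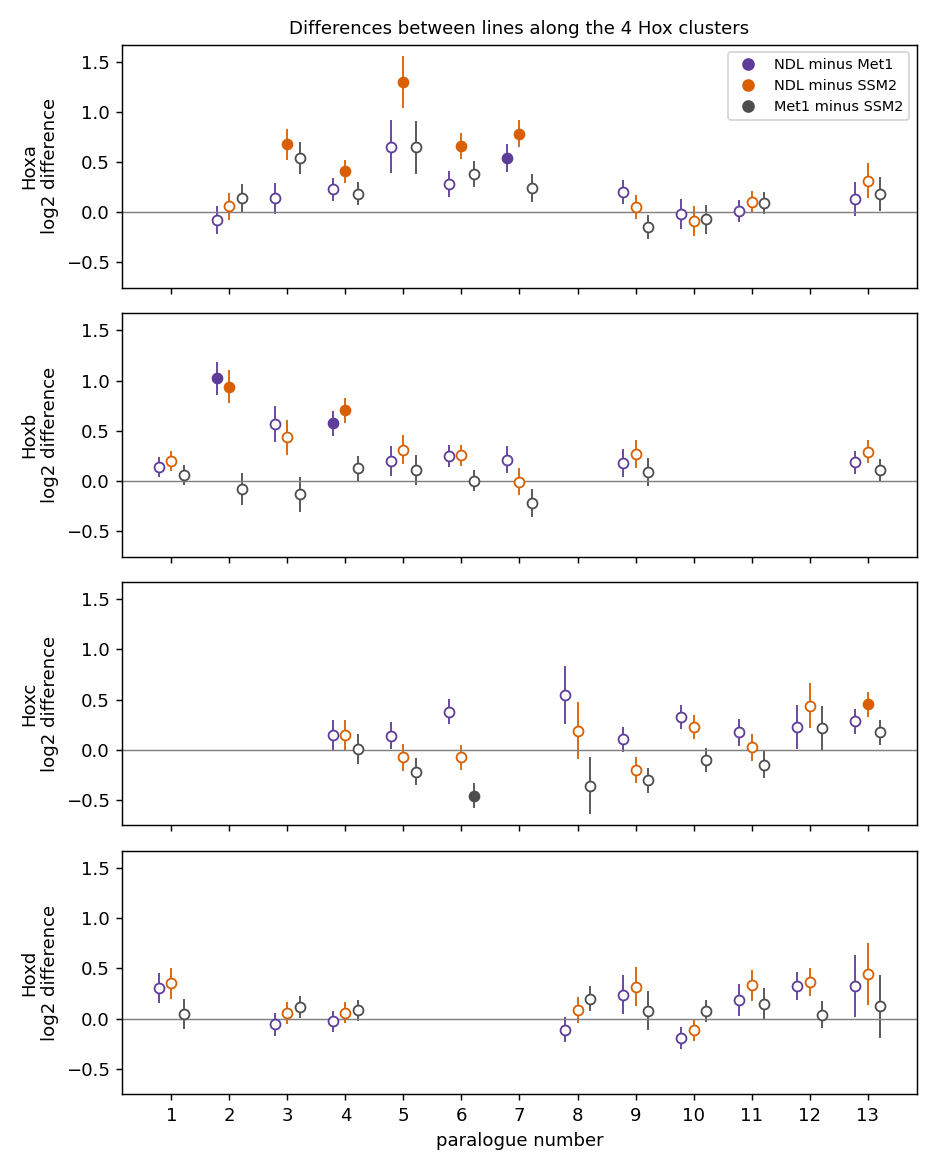
The log2 difference between lines is plotted against paralogue number in 4 panels, 1 per cluster, with bars of 1 SE of the fit and 3 arrays per line. Filled points passed at an adjusted p under 0.05 and open points did not; the filled points are Hoxa3 to Hoxa7 and Hoxb2 and Hoxb4 above 0, with Hoxc13 above and Hoxc6 below 0 in 1 contrast each.

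In the Hoxa cluster, the 5 adjacent genes Hoxa3, Hoxa4, Hoxa5, Hoxa6 and Hoxa7 were all higher in NDL than in SSM2 tumours, and the mean of each in Met1 lay between the other two. Hoxa5, needed in mice for normal development of the lung, showed the largest difference of any Hox gene in any contrast. Its feature (10544768) read 6.95, 6.51 and 7.73 in NDL, 6.39, 6.37 and 6.48 in Met1 and 5.80, 5.81 and 5.68 in SSM2. The 3 lines did not overlap, and NDL array 3 stood well above the other NDL arrays. The level was 2.46-fold higher in NDL than in SSM2 (log2 difference 1.30, SE 0.26, adjusted p = 0.0119). Both steps in between, NDL minus Met1 (0.65, adjusted p = 0.123) and Met1 minus SSM2 (0.65, adjusted p = 0.173), missed the threshold. When the fit held only the 2 lines, NDL minus SSM2 was the same size and narrowly missed it (adjusted p = 0.052), while Met1 minus SSM2 passed (0.65, adjusted p = 0.00746). Over 19 alternatives Met1 minus SSM2 passed in 4, among them the fit without NDL array 3 (adjusted p = 0.0145). NDL minus Met1 passed in 3, among them the fit without NDL array 2 (0.93, adjusted p = 0.0263), and ran from 0.32 to 1.32.

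Hoxa7, a target of MLL fusion proteins in leukaemia, was higher in NDL than in either other line. Its feature (10544779) read 6.35, 6.14 and 5.94 in NDL, 5.62, 5.57 and 5.62 in Met1 and 5.50, 5.14 and 5.45 in SSM2. Every NDL array lay above every array of the other lines. NDL exceeded Met1 by 0.54 (SE 0.14, adjusted p = 0.0275) and SSM2 by 0.78 (SE 0.14, adjusted p = 0.00659). The call against Met1 was lost without NDL array 1 or 2 or any single Met1 array (adjusted p = 0.0664 to 0.0986). Hoxa6, which patterns the thorax of the embryo, read 6.05, 5.96 and 6.22 in NDL, 5.77, 5.77 and 5.84 in Met1 and 5.17, 5.49 and 5.59 in SSM2 (feature 10544774). Its lines did not overlap, and NDL exceeded SSM2 by 0.66 (SE 0.13, adjusted p = 0.0107), while NDL minus Met1 was 0.28 (adjusted p = 0.174).

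Hoxa3, needed in mice for the thymus and parathyroid, read lower in SSM2 than in both other lines and passed only against NDL. It read 5.65, 5.44 and 5.81 in NDL, 5.66, 5.42 and 5.40 in Met1 and 5.04, 5.16 and 4.68 in SSM2 (feature 10544756). NDL and Met1 overlapped, and all SSM2 arrays lay below both. NDL exceeded SSM2 by 0.67 (SE 0.16, adjusted p = 0.0221). Met1 minus SSM2 was 0.54 (SE 0.16, adjusted p = 0.0635), missed the threshold, and passed under 1 of 19 alternatives. Hoxa4 read 6.98, 6.92 and 6.72 in NDL, 6.65 on each Met1 array and 6.35, 6.40 and 6.65 in SSM2 (feature 10544763). One SSM2 array shared the Met1 value, and NDL exceeded SSM2 by 0.41 (SE 0.11, adjusted p = 0.0432). Hoxa4 passed this contrast under 6 of 19 alternative settings, beside 14 for Hoxa3, 16 for Hoxa6, 18 for Hoxa5 and 18 for Hoxa7. Among its losses, Hoxa3 missed the threshold without NDL array 1, under cyclic loess (adjusted p = 0.107) and under quantile normalization (adjusted p = 0.0644). Hoxa6 missed it under cyclic loess (adjusted p = 0.0544). Hoxa4, Hoxa5 and Hoxa7 passed under both normalizations.

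The other 5 measured Hoxa genes passed in no contrast. Hoxa2 stood next to the block and read 4.78 on each NDL array, 4.85, 4.62 and 5.11 in Met1 and 4.78, 4.55 and 4.83 in SSM2, with all lines overlapping. The posterior genes Hoxa9, Hoxa10, Hoxa11 and Hoxa13 differed by -0.09 to 0.31 between NDL and SSM2 and overlapped between lines in every contrast. Grouped after the values were seen into central (numbers 4 to 8) and posterior (9 to 13) genes, the 4 central Hoxa genes averaged 6.58, 6.38 and 6.65 in NDL, 6.11, 6.09 and 6.15 in Met1 and 5.71, 5.71 and 5.84 in SSM2. The 4 posterior Hoxa genes averaged 4.93, 5.16 and 4.73 in NDL, 4.93, 4.85 and 4.79 in Met1 and 4.79, 4.95 and 4.80 in SSM2. The central means of the lines did not overlap and the posterior means did. NDL array 3 had the lowest mean of its line over the posterior genes and the highest mean over the central ones. Of the NDL arrays it was highest for Hoxa5 (7.73) and Hoxa6 (6.22), but lowest for Hoxa4 (6.72) and Hoxa7 (5.94).

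**Figure D3:**
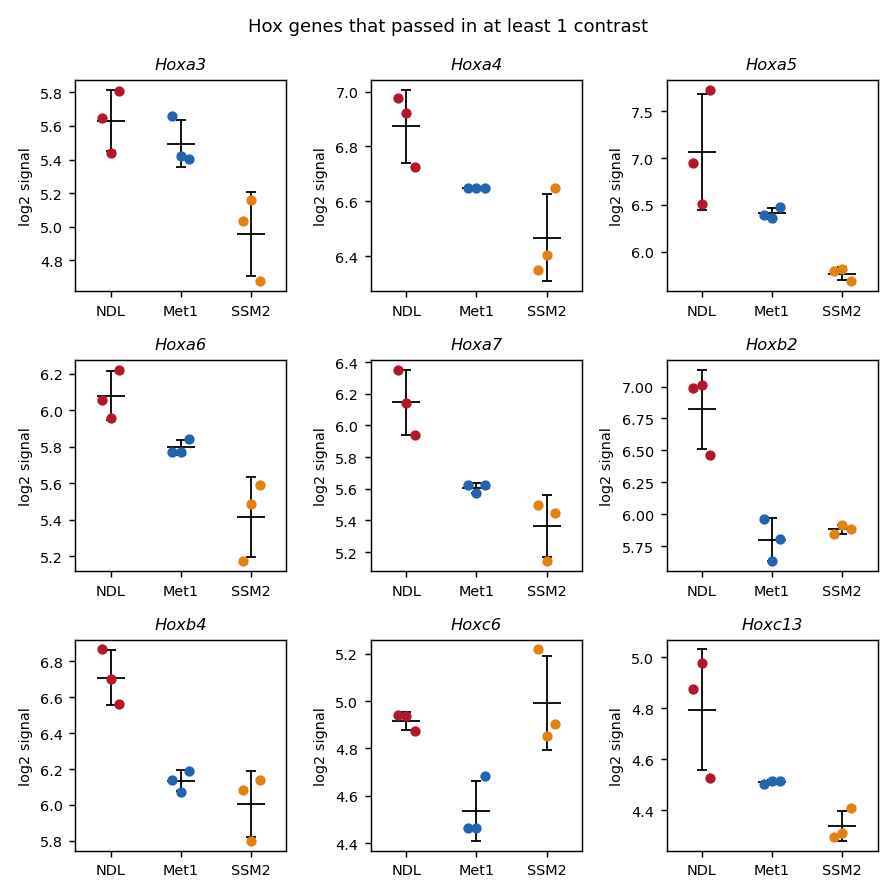
Log2 signal of the 9 Hox genes that passed in at least 1 contrast, 1 panel each with its own axis, for NDL, Met1 and SSM2. Coloured points are the 3 arrays of a line and black marks the mean with 1 SD; NDL lies above both other lines without overlap for Hoxa4 to Hoxa7, Hoxb2, Hoxb4 and Hoxc13, and SSM2 shares or exceeds the NDL level for Hoxc6.

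In the Hoxb cluster 2 genes, Hoxb2 and Hoxb4, exceeded both other lines in NDL. Between Met1 and SSM2 limma passed no Hoxb gene, with 0 at an unadjusted p under 0.05, beside 4725 of all 19938 genes. Hoxb2, which patterns the embryonic hindbrain, read 6.99, 7.01 and 6.47 in NDL, 5.97, 5.63 and 5.81 in Met1 and 5.85, 5.92 and 5.89 in SSM2 (feature 10380660). Every NDL array lay above all 6 others. Hoxb2 in NDL exceeded Met1 2.03-fold (1.02 on the log2 scale, SE 0.16, adjusted p = 0.00316) and SSM2 1.92-fold (0.94, SE 0.16, adjusted p = 0.00581). It passed against Met1 under all 19 alternatives run and against SSM2 under 18. Met1 minus SSM2 was -0.08 (SE 0.16, adjusted p = 0.862).

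Hoxb4, known for expanding blood stem cells, read 6.87, 6.70 and 6.56 in NDL, 6.14, 6.07 and 6.19 in Met1 and 6.08, 5.80 and 6.14 in SSM2 (feature 10380648). Again all NDL arrays lay above the rest. The difference was 0.58 against Met1 (SE 0.13, adjusted p = 0.014) and 0.70 against SSM2 (SE 0.13, adjusted p = 0.00703). Against Met1 it missed the threshold without NDL array 1 (adjusted p = 0.0571) or Met1 array 2 (adjusted p = 0.0583). Hoxb3, which lies between these genes, read 7.10, 6.90 and 6.38 in NDL, 6.38, 6.15 and 6.14 in Met1 and 6.32, 6.38 and 6.38 in SSM2. NDL array 3 and the highest arrays of both other lines all read 6.38, and neither NDL minus Met1 (0.57, SE 0.18, adjusted p = 0.0561) nor NDL minus SSM2 (0.43, adjusted p = 0.123) passed. Under cyclic loess Hoxb3 passed against Met1, as it did with array weights or without NDL array 3, 3 of 19 alternatives.

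The rest of Hoxb passed in no contrast. Hoxb1 read 6.73, 6.73 and 6.53 in NDL, 6.53 on each Met1 array and 6.49, 6.37 and 6.53 in SSM2, and Hoxb9 read 6.23, 6.01 and 5.84 in NDL, 6.07, 5.67 and 5.81 in Met1 and 5.74, 5.71 and 5.83 in SSM2. With Hoxb3 these had the highest means among the Hox genes that passed nowhere. Hoxb5, Hoxb6, Hoxb7 and Hoxb13 differed by -0.01 to 0.31 between NDL and SSM2. Over the 9 Hoxb genes the mean was 6.27, 6.18 and 5.90 in NDL, 5.83, 5.69 and 5.72 in Met1 and 5.75, 5.66 and 5.82 in SSM2, so that NDL array 3 was nearest to the other lines.

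In the Hoxc cluster single genes passed, with no adjacent block. Hoxc6 was the only Hox gene called between Met1 and SSM2 tumours. It read 4.94, 4.94 and 4.87 in NDL, 4.46, 4.46 and 4.68 in Met1 and 5.22, 4.85 and 4.90 in SSM2 (feature 10427293). All Met1 arrays lay below all others, while NDL and SSM2 overlapped. Met1 was lower than SSM2 by 0.46 (log2 difference -0.46, SE 0.12, adjusted p = 0.0483), close to the threshold, and it passed under 6 of 18 alternatives. NDL minus Met1 was 0.38 (SE 0.12, adjusted p = 0.0661). Hoxc13, which switches on hair keratin genes, read 4.88, 4.98 and 4.53 in NDL, 4.50, 4.52 and 4.52 in Met1 and 4.30, 4.31 and 4.41 in SSM2 (feature 10427268). NDL exceeded SSM2 by 0.46 (SE 0.12, adjusted p = 0.0402), NDL array 3 reached only just above Met1, and the call held under 5 of 18 alternatives. The means of Hoxc6 and Hoxc13 over the 9 arrays, 4.81 and 4.55, lay under the 25th percentile of all genes.

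The other 7 Hoxc genes passed in no contrast. Hoxc8, given here although outside the naming rule, varied most within a line among the Hoxc genes. It read 5.91, 5.84 and 5.37 in NDL, 4.92, 5.20 and 5.36 in Met1 and 6.15, 5.01 and 5.39 in SSM2. The single SSM2 array 1 was the highest of the 9. The same array held the highest Hoxc6 and Hoxc9 values, 5.22 and 6.18, and it also had the highest mean of all 9 arrays over the fibroblast (9.81), adipocyte (7.62), endothelial (7.77), lymphatic endothelial (6.64), pericyte (7.29) and neutrophil and mast cell (7.13) marker lists. The part of other cell types in these Hoxc values was not tested.

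In the Hoxd cluster none of the 9 genes passed in the limma contrasts or the F-test. At an unadjusted p under 0.05 there were 1 for NDL minus Met1, 2 for NDL minus SSM2, 0 for Met1 minus SSM2 and 0 for the F-test. Over all 19938 genes that level was met by 6518, 6828 and 4725 in the 3 contrasts and by 7787 in the F-test. The cluster mean was 5.21, 5.31 and 4.79 in NDL, 4.99, 5.02 and 4.97 in Met1 and 4.89, 4.89 and 4.90 in SSM2. NDL arrays 1 and 2 were the highest and NDL array 3 the lowest of all 9, and no Hoxd gene separated NDL from either other line without overlap. Hoxd13, which patterns digits and is named here outside the rule, read 4.60, 4.95 and 3.56 in NDL, 4.04 on each Met1 array and 3.68, 4.04 and 4.04 in SSM2. The value 3.56 was the lowest of all Hox values, and 2 Hox values lay under the highest Y-linked value. Without NDL array 3 Hoxd1, Hoxd9, Hoxd11, Hoxd12 and Hoxd13 passed against SSM2. The Hoxd results thus turned on which NDL arrays were kept.

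By paralogue number, the called genes lay in groups 2 to 7 and in group 13. In group 2 Hoxb2 passed and Hoxa2 differed by 0.06 between NDL and SSM2, and in group 5 Hoxa5 passed at 1.30, with Hoxb5 at 0.31 (adjusted p = 0.172) and Hoxc5 at -0.07 (adjusted p = 0.712). In group 4, Hoxa4 and Hoxb4 passed against SSM2, and Hoxc4 (0.15) and Hoxd4 (0.06) did not. Group 6 was called in Hoxa6, higher in NDL against SSM2, and in Hoxc6, lower in Met1 against SSM2. The 4 members of group 13 differed by 0.29 to 0.46 in NDL minus SSM2, and of these Hoxc13 alone passed. Differences between paralogues were not tested. In group 9, the group tied to mammary development in mice, none of Hoxa9, Hoxb9, Hoxc9 and Hoxd9 passed. At an unadjusted p under 0.05 there were 0 for NDL minus Met1, 0 for NDL minus SSM2 and 1 for Met1 minus SSM2. Over all 19938 genes these counts were 6518, 6828 and 4725. The NDL minus Met1 differences of group 9 ran from 0.10 to 0.24, and NDL minus SSM2 from -0.20 to 0.32.

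Of the TALE cofactors, Meis1 was lowest in NDL and highest in SSM2, and Pbx3 highest in Met1. Against SSM2, Meis1 in both other lines and Pbx3 in Met1 differed by more than the largest Hox difference of 1.30. Of the 8 analysed here, 5 passed the F-test (62.5%, beside 25.1% of all genes). Meis1, a homeobox cofactor that cooperates with Hox proteins in leukaemia, read 5.53, 5.32 and 5.12 in NDL, 6.31, 6.44 and 6.44 in Met1 and 8.18, 8.34 and 9.49 in SSM2. The lines did not overlap, with NDL lowest, where the Hoxa block was highest. Meis1 stood 10.2-fold lower in NDL tumours than in SSM2 tumours (log2 difference -3.35, SE 0.31, adjusted p = 0.000239), lower in Met1 than in SSM2 (-2.28, SE 0.31, adjusted p = 0.00218), and lower in NDL than in Met1 (-1.07, SE 0.31, adjusted p = 0.042), the last under 9 of 19 alternatives.

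Pbx3, a partner of Hox and Meis proteins on DNA, was highest in Met1: it read 7.08, 6.95 and 7.12 in NDL, 8.29, 8.33 and 8.15 in Met1 and 6.74, 6.79 and 6.80 in SSM2. NDL was lower than Met1 (-1.21, SE 0.10, adjusted p = 0.000115) and Met1 higher than SSM2 (1.48, SE 0.10, adjusted p = 8e-05), under all 19 alternatives in both contrasts. Among the smaller differences, Meis3 in NDL exceeded SSM2 by 0.80 (adjusted p = 0.0103) and Meis2 in Met1 exceeded SSM2 by 0.63 (adjusted p = 0.0283, under 10 of 19 alternatives). Pknox1 in NDL lay below SSM2 (-0.58, adjusted p = 0.042), and Pknox2 was higher in NDL than in Met1 (0.47, adjusted p = 0.0406) and SSM2 (0.49, adjusted p = 0.0385), each of these 3 calls under 8 to 10 of 19 alternatives. Pbx2 and Pbx4 passed in no contrast. The median cofactor difference was -0.12, 0.26 and 0.12 for NDL minus Met1, NDL minus SSM2 and Met1 minus SSM2.

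**Figure D4:**
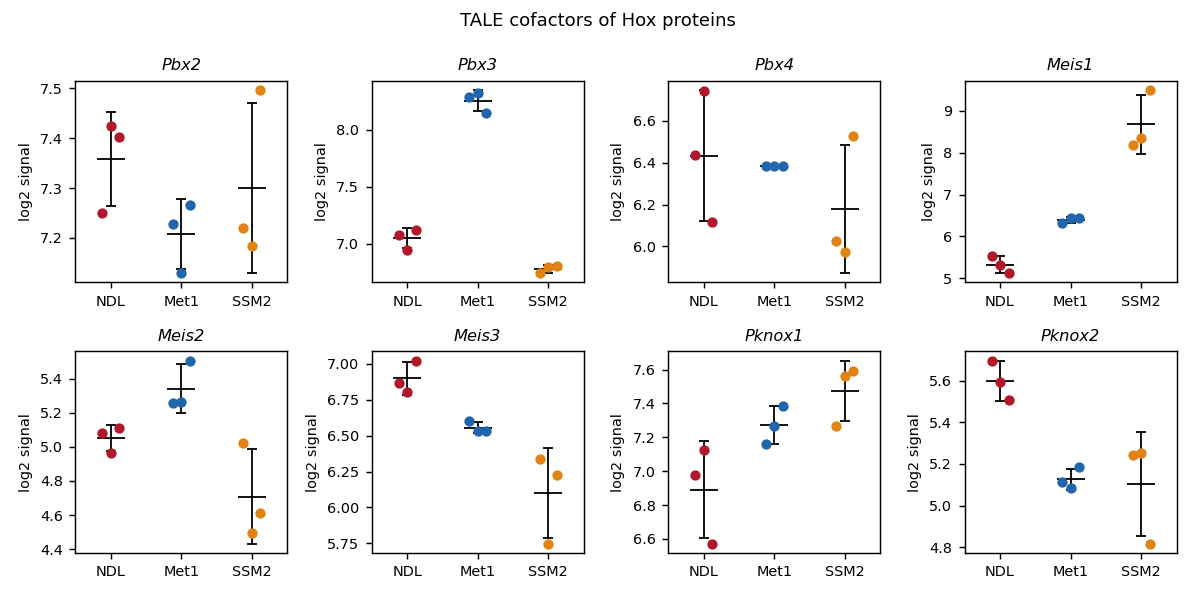
Log2 signal of the 8 measured TALE cofactors in NDL, Met1 and SSM2, with points for the 3 arrays of each line and the mean with 1 SD in black, each panel on its own axis. Meis1 increases in steps over NDL, Met1 and SSM2, to 9.49 in SSM2 array 3, and Pbx3 stands highest in Met1 at 8.15 to 8.33.

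Of 13 regulators upstream of Hox genes, NDL exceeded Met1 in 3 and SSM2 in 1, and between Met1 and SSM2 1 was higher and 2 lower in Met1. The called shares were 23.1%, 7.69% and 23.1%, beside 19.1%, 16.9% and 11.8% of all genes in either direction and 7.1% of all genes higher in Met1 against SSM2. Rarb, the retinoic acid receptor gene that retinoic acid itself induces, read 5.83, 5.25 and 5.86 in NDL, 4.41, 4.68 and 4.69 in Met1 and 5.11, 4.61 and 4.59 in SSM2. All NDL arrays lay above the rest, as for Hoxb2 and Hoxb4, and NDL exceeded Met1 by 1.05 (SE 0.21, adjusted p = 0.00885) and SSM2 by 0.88 (SE 0.21, adjusted p = 0.0231). The receptor Rarg was higher in NDL than in Met1 (0.41, adjusted p = 0.0303). Aldh1a2, which makes retinoic acid, was higher in NDL than in Met1 (1.42, adjusted p = 0.0392) and lower in Met1 than in SSM2 (-1.65, adjusted p = 0.0304). Crabp2, which carries retinoic acid to its receptors, was lower in Met1 than in SSM2 (-1.998, adjusted p = 0.0432, under 9 of 19 alternatives), and the receptor Rara was higher there (0.92, adjusted p = 0.0347). The 3 Cdx genes passed in no contrast. The median over the 13 was 0.24, 0.08 and -0.20 in NDL minus Met1, NDL minus SSM2 and Met1 minus SSM2.

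Of 15 measured Polycomb genes, 3 were lower in NDL than in Met1 and 2 lower in NDL than in SSM2, with none higher in either. These are 20% and 13.3% of the list, beside 10.2% and 7.52% of all genes lower and 19.1% and 16.9% called in either direction. Rnf2, the ubiquitin ligase of the first Polycomb complex, read 6.61, 6.09 and 7.76 in NDL, 7.99, 8.15 and 8.17 in Met1 and 8.31, 7.93 and 8.49 in SSM2. All NDL arrays lay below the rest, but array 3 by little, and the differences of -1.28 (adjusted p = 0.0432) and -1.42 (adjusted p = 0.0329) passed under 9 of 19 alternatives each. Jarid2, an accessory subunit of the second complex, was lower in NDL than in Met1 (-0.996, adjusted p = 0.0444, under 10 of 19 alternatives) and SSM2 (-1.29, adjusted p = 0.0188). Cbx8, a reader of the Polycomb histone mark, was lower in NDL than in Met1 (-0.65, adjusted p = 0.0278) and higher in Met1 than in SSM2 (0.76, adjusted p = 0.0202), and the methyltransferase Ezh1 was lower in Met1 than in SSM2 (-0.56, adjusted p = 0.0143). The Polycomb medians were -0.42, 0.00 and -0.03.

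Of 12 measured Trithorax and histone demethylase genes, NDL exceeded Met1 in 3, 2 were higher and 2 lower in NDL than in SSM2, and 1 lower in Met1 than in SSM2. The called shares of 25%, 33.3% and 8.33% stood beside 19.1%, 16.9% and 11.8% of all genes. The histone methyltransferase Kmt2b was higher in NDL than in Met1 (0.61, adjusted p = 0.00419) and SSM2 (0.48, adjusted p = 0.0145). Kmt2d, of the same family, was higher in NDL by 0.56 against Met1 (adjusted p = 0.00648) and by 0.78 against SSM2 (adjusted p = 0.00155) in its feature of highest mean. Averaged over its features, Kmt2d differed by 0.20 and -0.03 and passed in neither contrast. The demethylase Kdm6b, which removes the Polycomb mark, was higher in NDL than in Met1 (0.55, adjusted p = 0.0271). Psip1, which tethers Trithorax complexes to chromatin, lay lower in NDL tumours than in SSM2 tumours (-1.36, adjusted p = 0.0392, under 10 of 19 alternatives), as was the core subunit Ash2l (-0.73, adjusted p = 0.0132), which was also lower in Met1 than in SSM2 (-0.63, adjusted p = 0.0285). The medians were -0.07, 0.01 and -0.06.

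Genes around the clusters gave few calls. Of 17 listed noncoding RNAs and microRNA host features of the clusters, 10 were measured and none passed in limma, with 2, 1 and 0 at an unadjusted p under 0.05 for NDL minus Met1, NDL minus SSM2 and Met1 minus SSM2. Of 10 other homeobox genes of the Hox class none passed, with 1, 1 and 0 unadjusted. Of 22 measured genes beside the clusters 2 were higher in NDL than in Met1, Calcoco1 near Hoxc (0.71, adjusted p = 0.00745) and Atp5g3 near Hoxd (1.08, adjusted p = 0.00835), a share of 9.09% beside 8.88% of all genes. None of the 22 passed in NDL minus SSM2 or Met1 minus SSM2, with 7 and 4 unadjusted. Over all 19938 genes, 6518, 6828 and 4725 had an unadjusted p under 0.05 in NDL minus Met1, NDL minus SSM2 and Met1 minus SSM2. Beside Hoxa, Skap2 read 9.58, 9.28 and 9.94 in NDL, 8.92, 9.08 and 9.17 in Met1 and 9.88, 9.23 and 9.26 in SSM2, and Evx1 read 5.33, 5.25 and 5.16 in NDL, 5.29, 5.14 and 5.21 in Met1 and 5.19, 5.22 and 5.22 in SSM2. The NDL and SSM2 arrays overlapped for both genes. Snx10, also beside Hoxa, read 6.81, 6.04 and 7.81 in NDL, 7.13, 7.45 and 7.72 in Met1 and 8.55, 8.08 and 7.86 in SSM2. All NDL arrays lay below all SSM2 arrays, the opposite order to Hoxa3 to Hoxa7, and the difference of -1.28 missed the threshold (adjusted p = 0.0653).

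Lists of marker genes for cell types also differed between lines. As a background for the marker calls below, 8.88% of all genes were higher and 10.2% lower in NDL against Met1. The shares were 9.35% and 7.52% in NDL against SSM2, and 7.1% and 4.71% in Met1 against SSM2. Across 14 epithelial markers the mean per array was 9.60 to 9.78 for NDL, 5.91 to 7.29 for Met1 and 10.4 to 10.5 for SSM2. Of these, 13 exceeded Met1 in NDL, all 14 were lower in Met1 than in SSM2, and 1 was higher and 2 lower in NDL against SSM2. Across 9 basal and myoepithelial markers the mean was 6.47 to 6.84 for NDL, 5.85 to 6.90 for Met1 and 8.38 to 8.79 for SSM2, with 5 lower and 1 higher in NDL against SSM2. Fibroblast markers (14 genes) overlapped in their mean per array, with 8.58 to 8.70 for NDL, 8.25 to 8.85 for Met1 and 8.44 to 9.81 for SSM2, but single genes went both ways: 4 were higher and 4 lower in NDL against Met1, 4 higher and 4 lower in Met1 against SSM2, and 0 higher and 1 lower in NDL against SSM2. Mesenchymal state markers (12 genes) averaged 7.24 to 7.32 for NDL, 8.85 to 8.99 for Met1 and 7.45 to 8.19 for SSM2.

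Macrophage markers (9 genes) averaged 8.64 to 9.37 for NDL, 9.98 to 10.2 for Met1 and 8.37 to 9.81 for SSM2. Of these, 7 were lower in NDL than in Met1, 1 was higher and 1 lower in NDL against SSM2, and 4 were higher in Met1 than in SSM2. Endothelial markers (9 genes) averaged 6.73 to 6.86 for NDL, 6.71 to 6.95 for Met1 and 7.06 to 7.77 for SSM2. Of the endothelial markers 3 were lower in NDL and 1 in Met1, each against SSM2. Pericyte markers (5 genes) gave 3 higher calls in NDL against Met1 and 3 lower in Met1 against SSM2. Lymphocyte markers (9 genes) gave 2 lower calls in NDL against Met1 and 2 higher in Met1 against SSM2, and lymphatic endothelial markers (4 genes) 1 lower call in NDL and 1 in Met1, each against SSM2. Among neutrophil and mast cell markers (8 genes) 1 was higher in NDL against Met1 and 1 against SSM2. Among skeletal muscle markers (8 genes) 1 was higher in NDL against SSM2. Each of these calls is 12.5% of its list, beside 8.88% of all genes higher against Met1 and 9.35% against SSM2. Adipocyte (8 genes) and skin markers (4 genes) gave no call in limma. At an unadjusted p under 0.05 stood 0, 0 and 2 adipocyte and 1, 2 and 1 skin markers for NDL minus Met1, NDL minus SSM2 and Met1 minus SSM2. Over all 19938 genes these unadjusted counts were 6518, 6828 and 4725. In NDL minus SSM2, the contrast with 8 Hox calls, the median difference was -0.02 over the epithelial, -1.66 over the basal and myoepithelial and -0.67 over the endothelial markers. In Met1 minus SSM2, with 1 Hox call, the epithelial median was -3.43. The part of cell makeup in the Hox results was not tested.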

How the data were processed

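Total RNA of 9 tumour samples was hybridised to 1.0 ST mouse gene arrays. The authors deposited log2 expression values made with RMA in oligo 1.40.2, per the submitters' processing notes, and the values ran on a log2 scale in the table itself. The genome build used is not given in the sources used here. Background correction and quantile scaling, the steps of RMA, can compress differences of dim genes such as Hox genes. The number of arrays limits the precision.

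Gene symbols came from the platform annotation, updated through RefSeq for 21698 of 21789 features with 1 symbol. Of 35556 features, 1621 carried several symbols and 12146 none, and these were not used. Each gene was read from its feature of highest mean, which gave 19938 genes. Differences were tested with limma 3.58.1 in R 4.3.3 (lmFit and eBayes, all 9 arrays in 1 fit, 6 residual and 2.42 prior degrees of freedom), two-sided, with Benjamini-Hochberg adjustment over all 19938 genes and a call at an adjusted p under 0.05. The fit was tested on simulated data, in which only genes above the median signal were shifted, each by more than the largest Hox difference. That simulation cannot show how the fit performs for dim genes with small differences. A fold is 2 to the power of the log2 difference.

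Values of every array are given for each Hox gene called in at least 1 contrast and for the 3 uncalled Hox genes of highest mean, and of the other gene lists up to 5 called members per contrast are named. The members and lists were chosen with earlier results of these data known, and the background of genes in the Hox signal range after the values were seen. Alternatives covered low-signal filtering, variance model, normalization, array weights, feature choice, the arrays in the fit and a replicate block. The labels do not say whether replicate numbers pair the samples. Deviations of same-numbered arrays correlated at -0.35 to 0.29, and in no contrast did all 3 pairs exceed 0.1. The main fit was therefore unpaired, though 3 arrays per line cannot decide the question.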

Additional observations from a re-analysis of the deposited data

How the results depend on the processing

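Leaving out each array in turn, Hox calls numbered 3 to 15 in the F-test, 1 to 10 for NDL minus Met1, 5 to 17 for NDL minus SSM2 and 0 to 1 for Met1 minus SSM2, and calls over all genes 3354 to 8311, 2371 to 6631, 1873 to 7018 and 1360 to 2754. The highest Hox counts came without NDL replicate 3, the lowest for the F-test and NDL minus SSM2 without NDL replicate 1. The call of Hoxc6 between Met1 and SSM2 was lost whichever single array was left out. Without NDL replicates 1 and 2 together, 1 Hox gene passed the F-test and 1 NDL minus SSM2, with 2936, 1702 and 1190 calls over all genes in the F-test, NDL minus Met1 and NDL minus SSM2. Array weights, with weights of 3.62, 0.51 and 0.24 for the NDL arrays, gave 21, 21, 19 and 4 Hox calls and 11146, 10125, 7742 and 3726 over all genes in the F-test, NDL minus Met1, NDL minus SSM2 and Met1 minus SSM2. The weights were estimated gene by gene, since the default estimate did not converge.

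A fit of only the 2 lines gave 3 Hox calls for NDL minus SSM2 (8.11%), beside 1755 over all genes (8.8%). Cyclic loess gave 5 for NDL minus Met1, 4 higher and 1 lower in NDL (Hoxd10), or 13.5% beside 19.3% of all genes. For NDL minus SSM2 cyclic loess gave 6, or 16.2% beside 16.7% of all genes. Leaving out genes under the 25th percentile of signal gave 0 for Met1 minus SSM2, beside 16.1% of all genes in that fit. Quantile normalization, chosen after seeing the data, gave 6 in the F-test, beside 4946 over all genes. It gave 6 for NDL minus SSM2, or 16.2% beside 17% of all genes. The replicate block gave 5 Hox calls in the F-test, beside 4326 over all genes. It gave 3, 6 and 0 Hox calls in NDL minus Met1, NDL minus SSM2 and Met1 minus SSM2. These are 8.11%, 16.2% and 0% of the Hox genes, beside 16.8%, 13.9% and 9.87% of all genes. Whether the replicate numbers pair the samples is not known. Direction turned in 3 results: Kmt2d to -0.034 in NDL minus SSM2 on the mean of its features, Hoxb2 in Met1 minus SSM2 (-0.164 to 0.00297 without 1 array) and Hoxc6 in NDL minus SSM2 (-0.144 to 0.0381 without 1 array), neither Hox value called. The causes of these changes were not tested.

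Of the calls named above, Hoxb2 against Met1 passed in all 19 alternatives, and Hoxa5, Hoxa7, Hoxb2 and Hoxb4 against SSM2 in 18 of 19. Low signal limits what can be read for the 9 Hox genes whose mean lay under the 25th percentile of all genes, and 3 arrays per line leave wide errors.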

Other observations

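One feature (10380629) is shared by Hoxb8 and Hoxb7 and so belongs to neither gene alone. It read 4.16, 4.60 and 4.19 in NDL, 4.23, 4.19 and 4.19 in Met1 and 4.09, 4.19 and 4.13 in SSM2, and the lines overlapped.

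Pdx1, a homeobox gene of the Hox class needed for the pancreas, read 5.42, 5.65 and 5.23 in NDL, 5.29, 5.55 and 5.42 in Met1 and 5.23, 5.12 and 8.62 in SSM2. A single SSM2 array, replicate 3, stood far above the other 8, and the same array had the highest Meis1 value, 9.49.

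Tax1bp1, a gene beside the Hoxa cluster, read 7.51, 6.48 and 10.02 in NDL, 7.58, 8.21 and 7.21 in Met1 and 10.40, 9.44 and 9.61 in SSM2. NDL array 3 stood above the other NDL arrays here, as it did for Hoxa5 and, in the Polycomb list, for Suz12 with 6.77, 6.38 and 8.76 in NDL. All 3 genes were chosen after their values were seen.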
